A study of Homo sapiens with 6 samples.

Results

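The genes described are the 5 subunits of the transcription factor NF-kappaB (NFKB1, NFKB2, RELA, RELB and REL) and 5 genes that NF-kappaB is known to induce (NFKBIA, NFKBIE, TNFAIP3, TNFAIP2 and BIRC3). They were taken by gene symbol from a table of 28514 gene rows. All 10 were present, and all 10 were deep enough to be among the 14548 genes tested. The libraries were stranded mRNA sequencing of CI-huVEC, an immortalised human umbilical vein endothelial line. The wild-type group was WT 1, WT 2 and WT 4. The other group was the clonal lines K17, K18 and K19, labelled CCM3 -/-, made with CRISPR/Cas9 aimed at exon 3 of CCM3 (the gene PDCD10, mutated in cerebral cavernous malformations). All 6 samples were at passage 31 and carried the same clone label, HKO, which the labels do not explain. Each knockout library is 1 clone, so loss of CCM3 and differences between clones cannot be told apart. Whether WT 1, WT 2 and WT 4 are independent clones is not stated, and p-values reflect the spread of these 6 samples, which may be partly technical.

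NF-kappaB subunits form dimers that IkappaB proteins hold in the cytoplasm. Signals from cytokine and Toll-like receptors lead to degradation of the IkappaB proteins, and the freed dimers enter the nucleus and bind kappaB sites. Among the genes they induce are their own inhibitors, which close a negative feedback loop. In endothelium the pathway is known for turning on leukocyte adhesion molecules and cytokines. The genes NFKB1 and NFKB2 code for precursors that are processed to DNA-binding subunits, and RELA, RELB and REL code for the subunits that carry an activation domain. RELA is the main activator of the canonical pathway, RELB pairs with the NFKB2 product in the alternative pathway, and REL is best known from lymphoid cells. NFKBIA and NFKBIE code for the inhibitors IkappaB-alpha and IkappaB-epsilon, and TNFAIP3 for a ubiquitin-editing enzyme that shuts down signalling upstream. BIRC3 codes for a ubiquitin ligase of the inhibitor-of-apoptosis family that acts in TNF receptor complexes. TNFAIP2 is a TNF-induced gene linked to membrane protrusions and is not an established inhibitor of the pathway.

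The 4 promoter windows printed here belong to members with a single start in the table, and they show a member that rose with a kappaB match (NFKBIA), one that rose without any (TNFAIP2), one that fell with matches (BIRC3) and one that was not called with matches (TNFAIP3). Each is the 250 bases before the RefSeq start on the assembly GRCh38.p14, written 5′ to 3′ on the gene's strand, with matches to the kappaB consensus on either strand in capitals. They lie at chr14:35404750-35404999 on the minus strand for NFKBIA, chr14:103123211-103123460 on the plus strand for TNFAIP2, chr11:102317234-102317483 on the plus strand for BIRC3 and chr6:137867009-137867258 on the plus strand for TNFAIP3.
NFKBIA: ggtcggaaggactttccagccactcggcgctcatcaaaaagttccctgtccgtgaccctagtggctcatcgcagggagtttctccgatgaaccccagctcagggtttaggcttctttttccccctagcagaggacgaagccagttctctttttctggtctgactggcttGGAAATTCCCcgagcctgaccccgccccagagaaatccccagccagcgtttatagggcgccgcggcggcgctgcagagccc
TNFAIP2: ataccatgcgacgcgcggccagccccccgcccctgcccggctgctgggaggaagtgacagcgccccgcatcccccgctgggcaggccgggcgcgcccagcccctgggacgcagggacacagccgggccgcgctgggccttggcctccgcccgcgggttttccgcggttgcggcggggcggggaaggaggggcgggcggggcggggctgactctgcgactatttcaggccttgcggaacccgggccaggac
BIRC3: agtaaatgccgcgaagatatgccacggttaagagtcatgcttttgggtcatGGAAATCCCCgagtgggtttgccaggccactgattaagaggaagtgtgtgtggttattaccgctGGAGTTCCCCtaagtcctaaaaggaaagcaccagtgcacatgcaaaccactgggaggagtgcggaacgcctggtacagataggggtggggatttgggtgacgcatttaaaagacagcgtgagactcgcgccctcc
TNFAIP3: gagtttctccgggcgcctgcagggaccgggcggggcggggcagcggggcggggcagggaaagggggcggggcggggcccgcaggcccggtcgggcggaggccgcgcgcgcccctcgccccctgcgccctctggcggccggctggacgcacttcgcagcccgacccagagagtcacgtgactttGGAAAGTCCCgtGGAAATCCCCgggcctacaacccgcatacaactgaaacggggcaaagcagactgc

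Of the 8 members with a window in the table, 6 held a match in at least 1 window, against 11.8% of the 27305 genes with a window (9.96% of 35116 windows). The NFKBIA match read GGGAATTTCC on the strand opposite the gene, from 81 to 72 bases before the start. The same letters stood on the gene's strand of 1 of the 2 NFKB1 windows, from 49 to 40 bases before the start. TNFAIP3 held a pair, GGGACTTTCC starting 67 bases and GGGGATTTCC starting 55 bases before the start, both opposite the gene. BIRC3 also held GGGGATTTCC, 199 bases before the start, and GGGGAACTCC at 135 bases. In REL the match lay 47 bases before the start and overlapped a second on the other strand. NFKB2 held matches in 2 of its 3 windows. RELA, with 2 windows, and TNFAIP2 held none. Matches are descriptions of the letters and not measured binding, and members with and without them were found among those that rose.

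The libraries held 28280417 to 32919491 counts each, and 3 counts corresponded to 0.0903 to 0.108 CPM (counts scaled to the size of the library after TMM normalization). PDCD10, the targeted gene, lay between 60.5 and 61.6 CPM in the wild type and between 31.6 and 42.3 CPM in the clones (log2 fold change -0.71, edgeR adjusted p = 0.00374), and gene counts do not show the edit. Knockout clones differed among themselves far more than wild-type lines, with a biological coefficient of variation of 24.4% against 3.77%. They also differed in a trend with the GC content of transcripts. Among tested genes split into 5 bins, the bin with the highest GC content (58.6% or more) had a median log2 difference from the wild-type mean of 0.69 in K18 and 0.65 in K19 but -0.04 in K17. Over the group that bin had a median log2 fold change of 0.49, and the bin with the lowest GC content one of -0.22. Members are therefore given with their transcript GC content and with the value after each library's GC-content trend was removed. All 12 endothelial markers were tested; 10 were higher, 0 lower and 2 not called, and 8 were higher with the GC-content trend removed. Over all tested genes 18% were higher. Of 12 leukocyte markers 9 stayed below 1 CPM in every library, PTPRC, CD3E and SPI1 among them. The summed level of the leukocyte list was 21.0 to 25.8 CPM in the wild type and 40.2 to 45.8 CPM in the knockouts, most of it the lysosomal gene CD68. Markers of smooth muscle and pericytes summed to 295.8 to 311 CPM in the wild type and 6.25 to 17.1 CPM in the knockouts, nearly all RGS5, with ABCC9 at 0 counts. Fibroblast markers summed to 15.4 to 16.7 CPM and 58.8 to 313 CPM, and epithelial markers, with CDH1 and KRT5 at 0 counts, to 243 to 262 CPM and 352 to 629 CPM. Most of the epithelial sum was KRT18, at 229 to 246 CPM in the wild type and 321 to 586 CPM in the knockouts. The part of these markers in the results on NF-kappaB genes was not tested. In bulk RNA, fewer cells of a type and less RNA per cell cannot be told apart.

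Of the 10 members, RELA, NFKBIA and TNFAIP2 rose in the knockout clones, BIRC3 fell, and 6 were not called. A gene was called at an adjusted p below 0.05 in edgeR's quasi-likelihood test over all 14548 genes. By that rule 38.7% of all tested genes were called, 18% higher and 20.8% lower, and 4 called members of 10 is close to the share over all genes. The median log2 fold change was 0.11 over the members and 0.00 over all tested genes, and the median absolute value was 0.22 and 0.33. In 5 members the CPM of the groups did not overlap (4 higher and 1 lower), where 55.5% of all tested genes did not overlap. TNFAIP3 was among the higher ones by a narrow margin. Its groups overlapped in the deposited FPKM, values scaled by gene length and depth. The same 4 members have an adjusted p below 0.05 in the authors' deposited table, with log2 fold changes there of 0.68 for RELA, 0.91 for NFKBIA, 0.99 for TNFAIP2 and -0.85 for BIRC3.

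**Figure D1:**
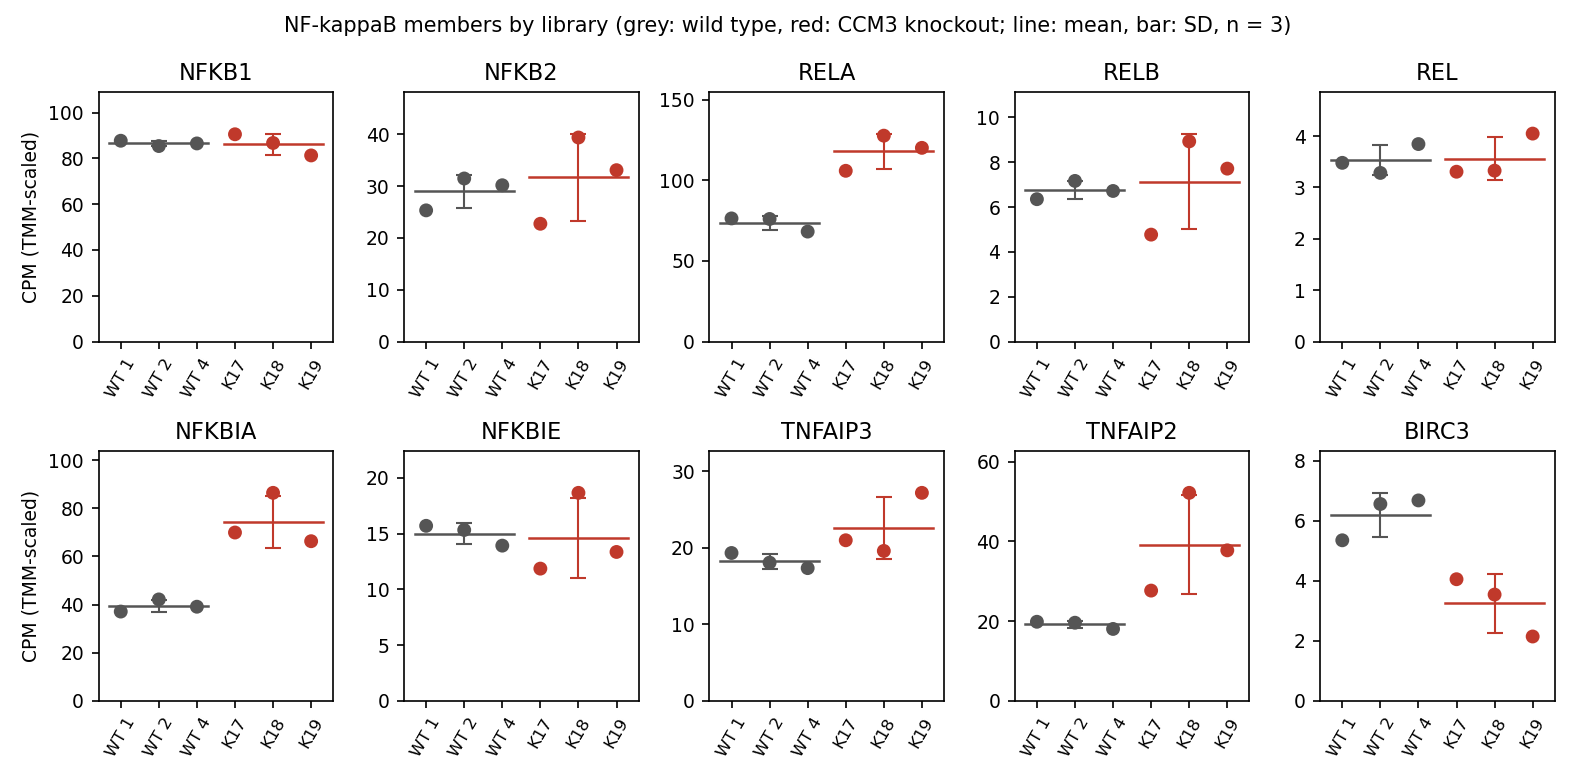
CPM of each of the 10 members (vertical axes, starting at 0) in WT 1, WT 2, WT 4, K17, K18 and K19 (horizontal axes); points are libraries, lines are means and bars the SD of 3 libraries. RELA, NFKBIA, TNFAIP3 and TNFAIP2 lie higher in every knockout clone than in any wild-type library and BIRC3 lies lower, while the other 5 overlap. The gap of TNFAIP3 is narrow (19.6 CPM in K18, 19.3 CPM in WT 1) and is absent in the deposited FPKM.

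The canonical activator subunit rose. RELA (chromosome 11, NCBI gene 5970) measured 76.4, 76.0 and 68.2 CPM (WT 1, WT 2, WT 4) against 106, 128 and 120.1 CPM (K17, K18, K19). Every clone was above every wild-type library. The log2 fold change was 0.68 ± 0.09 (SE), a 1.60-fold level with a 95% interval of 1.38 to 1.86 (edgeR adjusted p = 0.00201). RELA transcripts are GC-rich (61.8%), and with the GC-content trend removed the value was 0.24 ± 0.14 and no longer called (edgeR adjusted p = 0.198). Without that removal, the log2 difference of RELA from the wild-type mean was 0.53 in K17, 0.80 in K18 and 0.71 in K19. RELA was called under the other 18 of 19 alternatives.

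NFKB1 (chromosome 4), which codes for the precursor partner of RELA in the canonical dimer, was not called. It measured 87.7, 85.4 and 86.5 CPM in the wild-type libraries, against 90.5, 86.7 and 81.3 CPM in clones K17, K18 and K19. These ranges overlap, and K19 was the lowest of the 6 libraries. The log2 fold change was -0.01 ± 0.06 with a 95% interval of -0.15 to 0.14 (edgeR adjusted p = 0.944), which corresponds to levels of 0.901-fold to 1.10-fold. With a GC content of 48.9% it moved little when the trend was removed (0.03).

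The alternative-pathway pair NFKB2 and RELB was not called, and in both genes K17 was below every wild-type library while K18 and K19 were above. NFKB2 (chromosome 10) measured 25.3, 31.5 and 30.2 CPM in the wild-type libraries, against 22.7, 39.4 and 33.1 CPM in clones K17, K18 and K19. RELB (chromosome 19) measured 6.35, 7.17 and 6.72 CPM in the wild-type libraries, against 4.77, 8.93 and 7.71 CPM in the clones. The clones thus straddle the wild type in both genes, with the lowest and the highest value of all libraries among them. The log2 fold change was 0.13 ± 0.21 for NFKB2 (edgeR adjusted p = 0.633, 95% interval -0.37 to 0.63). For RELB it was 0.08 ± 0.23 (edgeR adjusted p = 0.799, 95% interval -0.48 to 0.64). Their transcripts are the most GC-rich of the members, at 62.1% and 65.2%. With the GC-content trend removed both were called lower, NFKB2 at -0.38 (edgeR adjusted p = 0.0424) and RELB at -0.60 (edgeR adjusted p = 0.0134). Without that removal, the log2 difference of K17 from the wild-type mean was -0.35 for NFKB2 and -0.50 for RELB. Without K17 the log2 fold change of NFKB2 was 0.33 and was called (edgeR adjusted p = 0.0375), and that of RELB was 0.31 and was not (edgeR adjusted p = 0.0579). The direction for these genes therefore differs between the clones and with the treatment of GC content.

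REL (chromosome 2), at 109 to 115 counts in each wild-type library, was the least abundant subunit. It measured 3.48, 3.28 and 3.84 CPM in the wild-type libraries, against 3.31, 3.33 and 4.05 CPM in the clones. The groups overlap, with K17 and K18 inside the wild-type range and K19 above it. The log2 fold change was 0.01 ± 0.15 (edgeR adjusted p = 0.960, 95% interval -0.35 to 0.38). Its transcripts are GC-poor (39.0%), and with the GC-content trend removed the value was 0.24, not called (edgeR adjusted p = 0.242). GENCODE places a short non-coding gene and a 3-prime overlapping RNA on the strand of REL, and an RNA on the opposite strand of RELA and of TNFAIP3. None of these has a row in the table, and how the counting treated strand is not stated in the sources used, so reads of such neighbours could be counted in these members.

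**Figure D2:**
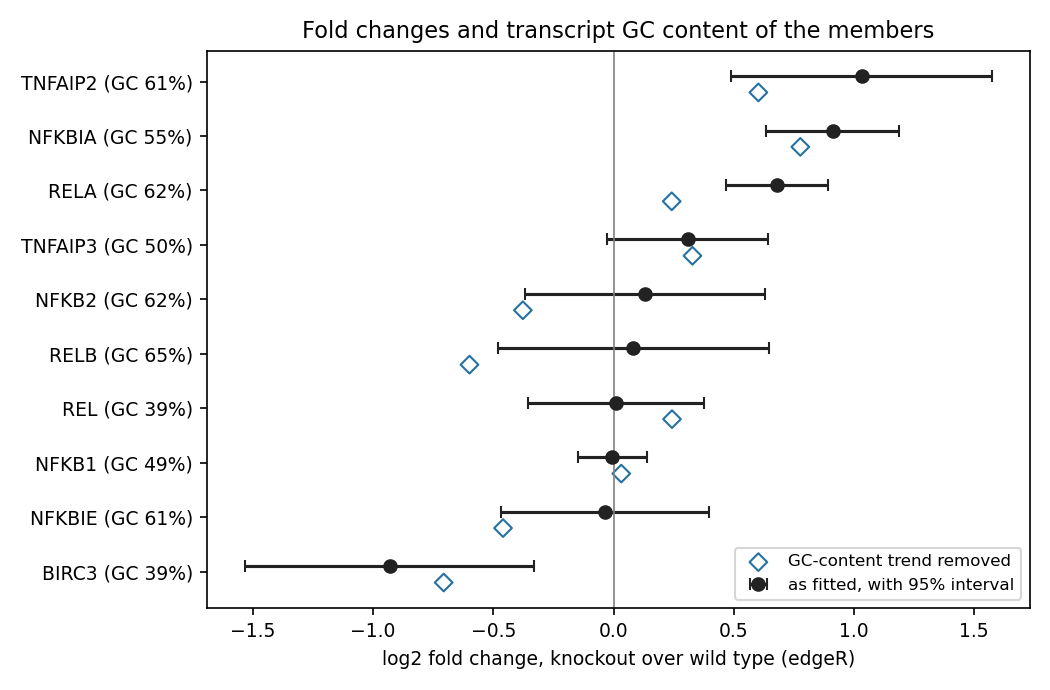
Log2 fold change of each member, knockout over wild type (horizontal axis), with the GC content of its transcripts beside the name; black points are the edgeR values with 95% intervals and blue diamonds the values after each library's GC-content trend was removed. TNFAIP2, NFKBIA and RELA lie right of 0 and BIRC3 left of 0 with intervals that exclude 0, and the diamonds of NFKB2, RELB and NFKBIE lie left of 0.

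Among the inhibitors, NFKBIA rose while NFKBIE was not called. NFKBIA (chromosome 14, NCBI gene 4792) measured 37.1, 42.1 and 39.1 CPM (WT 1, WT 2, WT 4) against 69.9, 86.4 and 66.3 CPM (K17, K18, K19). The lowest clone was above the highest wild-type library. The log2 fold change was 0.91 ± 0.12, a 1.88-fold level with a 95% interval of 1.55 to 2.28 (edgeR adjusted p = 0.00182). At a GC content of 55.3% it kept 0.78 with the GC-content trend removed (edgeR adjusted p = 0.00102), and it was called under all 19 alternatives, at 0.78 to 1.01. NFKBIE (chromosome 6) measured 15.7, 15.3 and 13.9 CPM in the wild-type libraries, against 11.9, 18.7 and 13.4 CPM in clones K17, K18 and K19. K17 and K19 lay below the wild type and K18 above it. Its log2 fold change was -0.04 ± 0.18 (edgeR adjusted p = 0.886, 95% interval -0.47 to 0.39). With a GC content of 61.0% it was called lower when the GC-content trend was removed (-0.46, edgeR adjusted p = 0.0293).

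TNFAIP3 (chromosome 6), the ubiquitin-editing feedback enzyme, was higher in CPM in each clone, by a margin that did not pass the test. It measured 19.3, 18.1 and 17.3 CPM in the wild-type libraries, against 21.0, 19.6 and 27.2 CPM in clones K17, K18 and K19. In these TMM-scaled CPM the groups do not overlap, but K18 was only just above WT 1, and K19 carried most of the difference. In the deposited FPKM the groups overlap, with K18 (3.23) below WT 1 (3.26). The log2 fold change was 0.31 ± 0.14 (edgeR adjusted p = 0.121, 95% interval -0.03 to 0.64). Without K17 it was called at 0.37 (edgeR adjusted p = 0.0437), and without K19 it was 0.17. Its GC content is 50.0% and its value with the GC-content trend removed was 0.33 (edgeR adjusted p = 0.0965).

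TNFAIP2 (chromosome 14, NCBI gene 7127) rose and was the most uneven of the members that did. It measured 19.8, 19.6 and 18.04 CPM in the wild-type libraries, against 27.7, 52.2 and 37.8 CPM in clones K17, K18 and K19. All clones were above all wild-type libraries, and the highest clone was 1.89 times the lowest. The log2 fold change was 1.03 ± 0.22, a 2.05-fold level with a 95% interval of 1.40 to 2.98 (edgeR adjusted p = 0.0140). The call ended when WT 1, WT 2 or WT 4 was left out (edgeR adjusted p = 0.0540, 0.0530 and 0.0628), with values of 0.99 to 1.06. At a GC content of 60.7% it was at 0.60 with the GC-content trend removed (edgeR adjusted p = 0.00567) and was still called.

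BIRC3 (chromosome 11, NCBI gene 330) fell. It measured 5.35, 6.56 and 6.68 CPM in the wild-type libraries, against 4.05, 3.54 and 2.14 CPM in clones K17, K18 and K19, from 62 to 218 counts per library. All clones were below all wild-type libraries, and K19 was lowest. The level fell by 0.93 in log2 units (SE 0.25, edgeR adjusted p = 0.0278), or 1.91-fold. The call ended without K18, WT 1, WT 2 or WT 4 (edgeR adjusted p = 0.0655, 0.0609, 0.0913 and 0.10). Its transcripts are GC-poor (38.8%), and with the GC-content trend removed the value was -0.71 (edgeR adjusted p = 0.0468). Next to it on chromosome 11 lies its paralogue BIRC2, chosen for this comparison after the values were seen, which codes for the related ubiquitin ligase. BIRC2 was far more abundant and fell as well, from 156.8 ± 4.99 to 78.3 ± 5.88 CPM (edgeR adjusted p = 0.000221). The ratio of BIRC3 to BIRC2 in FPKM was 0.0233 ± 0.00326 in the wild type and 0.0247 ± 0.00824 in the knockouts (exact permutation test, two-sided, p = 0.9). BIRC2 is 1 of the 3 tested genes taken on each side of BIRC3. They were taken by order of RefSeq start and without regard to distance, so they are not a local block. Before removal of the GC-content trend, 3 of the other 5 fell, where 20.8% of all tested genes were called lower. MMP10, which codes for a matrix metalloproteinase, fell by 3.74 (edgeR adjusted p = 0.00101), JRKL fell by 0.43 (edgeR adjusted p = 0.00678) and TMEM123 fell by 0.32 (edgeR adjusted p = 0.00820). YAP1 was at -0.40 and ARHGAP42 at 0.33, and neither was called (edgeR adjusted p = 0.114 and 0.416). Removing the GC-content trend left MMP10 at -3.64 (edgeR adjusted p = 0.00033) and JRKL at -0.26 (edgeR adjusted p = 0.0171), both still called. It left TMEM123 at -0.13, no longer called (edgeR adjusted p = 0.0843).

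**Figure D3:**
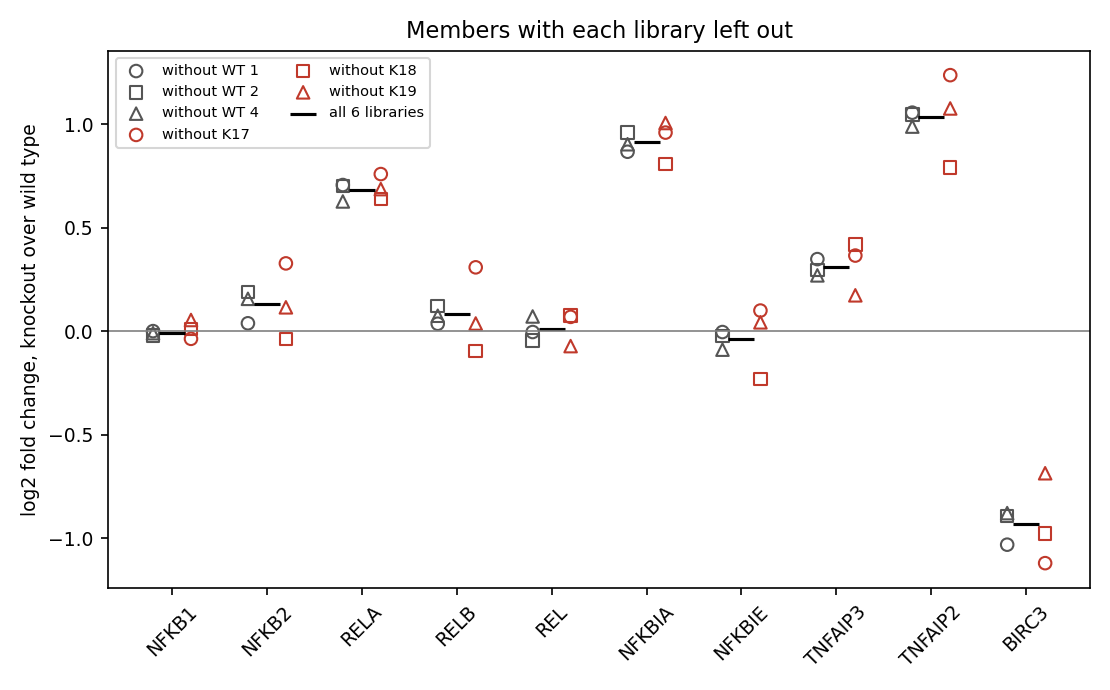
Log2 fold change of each member (vertical axis) with all 6 libraries (black bars) and with each library left out in turn (symbols, grey for wild-type and red for knockout libraries). RELA, NFKBIA and TNFAIP2 stay above 0 and BIRC3 below 0 in all of these fits, while leaving out K17 raises NFKB2 and RELB to 0.33 and 0.31.

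The unevenness of the clones ran through all 10 members and is not particular to them. Over all tested genes the biological coefficient of variation was 24.4% in the clones against 3.77% in the wild type. How many of all tested genes varied more among the clones was not counted. The coefficient of variation was larger among the clones than among the wild-type libraries in all 10 members, at 5.39% to 31.4% against 1.34% to 11.9%. It was largest in TNFAIP2, BIRC3 and RELB, at 31.4%, 30.4% and 30.0% among the clones. K17 was the lowest clone in 6 members and K18 the highest in 6; over all tested genes K17 was lowest in 41.4% and K18 highest in 29.8%. The members in which K17 was lowest were NFKB2, RELA, RELB, REL, NFKBIE and TNFAIP2, and 5 of these, all but REL, have a GC content above 60%.

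Levels of different genes were compared per length, as FPKM, the deposited values scaled by gene length and depth. In the wild type the order was NFKBIA (20.4 ± 1.49 FPKM), RELA (18.2 ± 1.08), NFKB1 (16.6 ± 0.0923), NFKB2 (6.87 ± 0.832), NFKBIE (4.69 ± 0.271), TNFAIP2 (3.71 ± 0.175), TNFAIP3 (3.11 ± 0.144), RELB (2.40 ± 0.167), REL (1.10 ± 0.0904) and BIRC3 (0.726 ± 0.0931), each as mean ± SD of 3 libraries. Only NFKBIA and RELA overlapped among neighbours in that order. In the knockouts NFKBIA reached 37.1 ± 5.41 FPKM and RELA 28.3 ± 2.30, and their ranges no longer met. TNFAIP2, at 7.34 ± 2.26 FPKM, came level with NFKB2 at 7.26 ± 1.85, and both overlapped NFKBIE at 4.43 ± 1.06. Ranked by mean FPKM over all 6 libraries among 14548 tested genes, NFKBIA stood at place 2259, RELA at 2825 and NFKB1 at 3905, and BIRC3 at 12413.

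RELA took a larger share of the subunit transcripts in each clone than in any wild-type library. The 5 subunits summed to 44.6, 46.6 and 44.5 FPKM in WT 1, WT 2 and WT 4, and to 51.2, 59.8 and 54.4 FPKM in K17, K18 and K19. RELA made up 42.0%, 40.8% and 38.2% of that sum in the wild type and 50.8%, 51.2% and 52.1% in the clones. Its share was 11.0 percentage points higher in the knockout mean, and no clone overlapped a wild-type library. NFKB1 made up 37.3%, 35.4% and 37.5% in the wild type and 33.6%, 26.9% and 27.3% in the clones. For both shares the exact permutation test, two-sided, gave p = 0.1, the smallest value that 3 against 3 libraries allow. The share of NFKB2 was 15.2% ± 1.64 and 13.1% ± 2.40 and that of RELB 5.29% ± 0.263 and 4.39% ± 0.986, with overlapping ranges. The share of REL was 2.44% ± 0.250 and 1.96% ± 0.265, and its ranges did not overlap, by a narrow gap (2.214% in WT 2 and 2.206% in K19, exact permutation test, two-sided, p = 0.1). The shares are parts of the same sum, so they are not independent results. The levels of NFKB1 and REL themselves were not called, with log2 fold changes of -0.01 and 0.01. The GC-content trend was not removed from these shares, and its part in them was not tested.

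**Figure D4:**
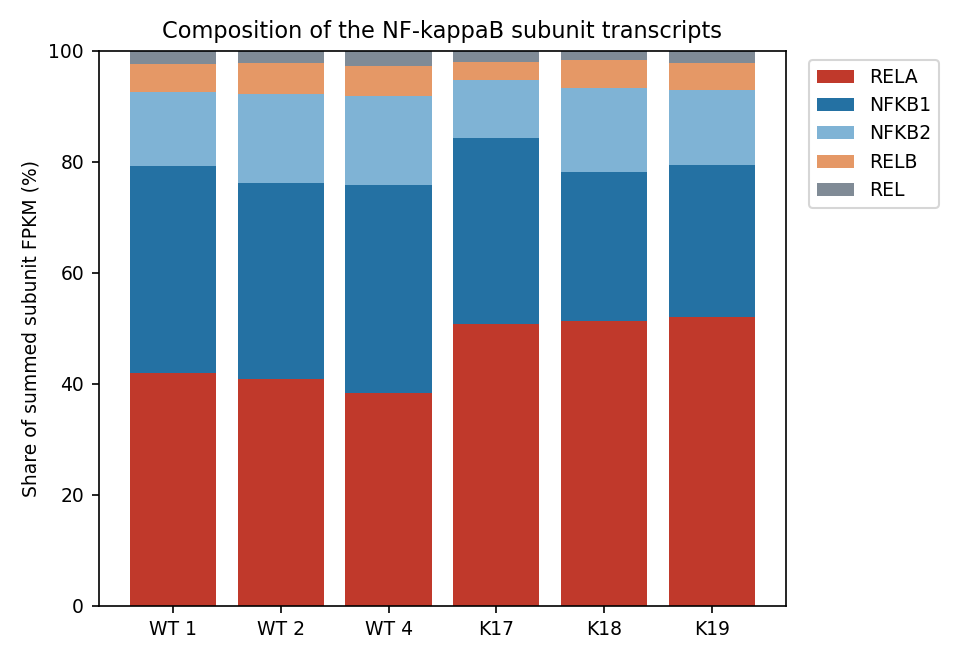
Share of each of the 5 NF-kappaB subunit genes in their summed FPKM (vertical axis, percent) in each library (horizontal axis). The RELA segment covers 38.2% to 42.0% in the wild-type libraries and 50.8% to 52.1% in the knockout clones.

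Inhibitor transcripts were set against subunit transcripts in the same way. NFKBIA and NFKBIE together amounted to 0.533, 0.574 and 0.555 FPKM per FPKM of summed subunits in the wild type, and to 0.769, 0.816 and 0.671 in K17, K18 and K19. The clones were higher without overlap (exact permutation test, two-sided, p = 0.1). Per FPKM of RELA alone, NFKBIA was at 1.01, 1.15 and 1.19 in the wild type and at 1.37, 1.41 and 1.15 in the clones. There K19 fell inside the wild-type range (exact permutation test, two-sided, p = 0.3). Between the inhibitors, NFKBIE per NFKBIA went from 0.231 ± 0.0224 to 0.119 ± 0.0144, with every clone below every wild-type library (exact permutation test, two-sided, p = 0.1).

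The rest of the pathway was read from lists. Of 18 tested further inhibitors and negative regulators, 3 were higher, 2 lower and 13 not called, so that 27.8% were called against 38.7% of all tested genes. BCL3, an atypical IkappaB protein that binds NF-kappaB dimers in the nucleus, rose from 8.73 ± 0.936 to 23.7 ± 3.73 CPM (edgeR adjusted p = 0.000926). ZC3H12A, an endoribonuclease that degrades inflammatory mRNAs, rose from 4.95 ± 0.565 to 18.03 ± 5.52 CPM (edgeR adjusted p = 0.00267). TNIP1, which codes for a ubiquitin-binding partner of the TNFAIP3 protein, rose by 0.66 on the log2 scale (edgeR adjusted p = 0.0039). BIRC2 and the ubiquitin ligase gene ITCH were the lower ones, ITCH by 0.43. With the GC-content trend removed BCL3 was at 0.80, TNIP1 at 0.39 and ITCH at -0.24, all still called. By DESeq2 6 of these genes were higher, and without K17 8 were higher and 5 lower. Calls over all tested genes also increased without K17, from 2612 to 4776 higher and from 3025 to 4491 lower. Over all the genes that DESeq2 tested, 3189 were higher.

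Among 37 kinases, adaptors and ubiquitin ligases upstream, 9 were higher, 7 lower and 21 not called, with a median log2 fold change of -0.03. The called share, 43.2%, is near the 38.7% over all tested genes. The catalytic subunits of the IkappaB kinase went apart. IKBKB, the canonical kinase, rose from 50.8 ± 2.50 to 80.8 ± 6.59 CPM (edgeR adjusted p = 0.00157), and CHUK, the kinase of the alternative pathway, fell from 72.5 ± 1.42 to 51.8 ± 2.69 CPM (edgeR adjusted p = 0.00195). MALT1, a protease of the complex that links receptors to the kinase, rose by 0.65, and its scaffold partner CARD10 went from 26.4, 26.4 and 19.7 CPM in the wild-type libraries to 39.7, 83.0 and 86.1 CPM in clones K17, K18 and K19. The CARD10 call (edgeR adjusted p = 0.0109) ended without WT 4 (edgeR adjusted p = 0.0514). Removal of the GC-content trend took its value from 1.53 to 0.91, and that of CHUK from -0.48 to -0.24, both still called. TRAF1, an adaptor that is itself induced by NF-kappaB, fell from 22.7 ± 2.06 to 5.53 ± 2.14 CPM (edgeR adjusted p = 0.00351), and the interleukin receptor kinase gene IRAK2 fell by 0.62. Leaving out any library but K17 lowered the count to between 2 and 4 higher and between 4 and 5 lower. Calls over all tested genes fell too where K18 was left out, to 2181 higher and 2278 lower. Without K17 15 were higher and 11 lower. That fit called 4776 higher and 4491 lower over all tested genes, where the fit of all 6 libraries called 2612 and 3025.

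Receptors and ligands that lead to NF-kappaB held 7 higher, 2 lower and 11 not called of 20 tested; 7 more, all below 1 CPM, were too low to test. The called share of the tested ones, 45%, is near the 38.7% over all tested genes. TNF had 0 counts in all 6 libraries, which allows a level of up to 0.108 CPM by counting error. Without K17 6 genes of this list were lower in place of 2, and over all tested genes 4491 were lower in place of 3025. The TNF receptor gene TNFRSF1A rose from 89.4 ± 5.31 to 162.3 ± 16.0 CPM (edgeR adjusted p = 0.000878), and TNFRSF25, another death-domain receptor, from 8.84 ± 0.305 to 27.3 ± 2.96 CPM (edgeR adjusted p = 0.000192). The log2 value of TNFRSF25 went from 1.62 to 1.06 with the GC-content trend removed and was still called. TLR3, the receptor for double-stranded RNA, rose from 1.34 ± 0.137 to 6.76 ± 1.89 CPM (edgeR adjusted p = 0.000870). The cytokine genes IL1A and IL33 fell, both at low levels. IL1A went from 1.39 ± 0.260 to 0.499 ± 0.0738 CPM (edgeR adjusted p = 0.00442). IL33 went from 2.23 ± 0.485 to 0.531 ± 0.324 CPM (edgeR adjusted p = 0.0132). The IL33 call ended without WT 2 or WT 4 (edgeR adjusted p = 0.0515 and 0.0570).

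Of 36 tested genes widely described as NF-kappaB targets, 19 were higher, 8 lower and 9 not called. The called share was 75%, against 38.7% of all tested genes (18% higher and 20.8% lower). The list was chosen with earlier results of these data known. Its median log2 fold change was 0.59 against 0.00 over all tested genes. A further 8 of the 44 listed were too low to test. CFLAR, an inhibitor of caspase activation, rose from 246.8 ± 6.62 to 409.3 ± 7.72 CPM (edgeR adjusted p = 0.000160), and the interferon regulatory factor gene IRF1 from 12.6 ± 0.0918 to 27.6 ± 1.91 CPM (edgeR adjusted p = 0.000276). PLAU, which codes for urokinase, rose by 1.74. The adhesion molecule gene VCAM1 fell from 11.7, 13.2 and 12.0 CPM in the wild-type libraries to 1.64, 0.217 and 0.623 CPM in clones K17, K18 and K19 (edgeR adjusted p = 0.00339). PTGS2 and SELE, for cyclooxygenase and E-selectin, also fell, by 2.84 and 2.55. With the GC-content trend removed the list held 18 higher and 9 lower, where 41.5% of all tested genes were called in either direction. The lists overlap in IL1A, IL1B, LTB, CD40, TLR2, TRAF1, NFKBIZ, BCL3 and TNIP1, and no set test was made.

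**Figure D5:**
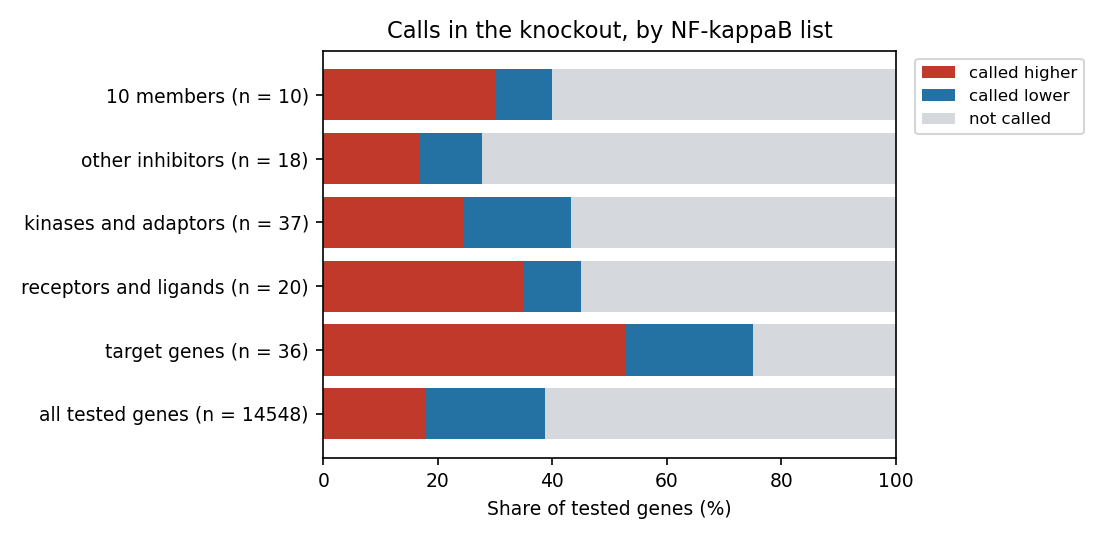
Share of tested genes called higher (red), called lower (blue) and not called (grey) in the knockout by edgeR, for the 10 members, 4 lists of other pathway genes and all 14548 tested genes; the horizontal axis is percent of tested genes and n is the number tested. The 10 members resemble all tested genes in the share called. The target list holds 19 higher and 8 lower of 36, against 18% higher and 20.8% lower over all tested genes.

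The called member with the largest change, TNFAIP2, was compared in its pattern over the 6 libraries with 11056 other genes of at least 5 CPM in a group. The most alike were KRT18, FAM86B3P and ABCA1, with a root mean square difference in centred log2 CPM of 0.06 each. KRT18, a keratin gene, measured 246, 239 and 229 CPM in the wild-type libraries, against 321, 586 and 463 CPM in clones K17, K18 and K19. These genes were picked for their likeness to TNFAIP2 over the same 6 libraries. Their rise and their order of clones, K18 highest and K17 lowest, follow from that choice. KRT18 has processed copies in the genome and FAM86B3P belongs to a family of close copies, so their counts are uncertain. ABCA1, a cholesterol exporter gene, rose from 2.30 ± 0.152 to 5.01 ± 1.74 CPM (edgeR adjusted p = 0.0182).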

How the data were processed

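Per the labels' protocols, total RNA of 6 CI-huVEC samples was made into stranded mRNA libraries. STAR and HTSeq, and the builds hg19 and GRCh37, are named per the submitters' processing notes; versions, annotation and the strand option used in counting are not given in these sources. The deposited table gives whole-number counts and FPKM per gene symbol, per the file headers. A further deposited table holds the authors' own comparison: a mean normalized signal, a log2 fold change with its error, and p-values; its tool is not given, and its direction was checked against the counts.

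Counts were tested with edgeR 4.0.16 (TMM factors, filterByExpr, robust glmQLFit, glmQLFTest, two-sided) and adjusted by Benjamini-Hochberg over 14548 genes. CPM are TMM-scaled. The standard error is the log2 fold change over the root of F. A gene was called below 0.05. DESeq2 1.42.0 and limma 3.58.1 were alternatives, as were other scalings and filters, FPKM on the log2 scale, each library left out, and removal of a lowess trend (span 0.3) on GC content. GC content is the median over GENCODE 29 transcripts, matched for 86.8% of tested and 89.9% of called genes. Ratios used an exact permutation test. The edgeR step was tested on simulated counts. Each simulated gene had the same dispersion in both groups, so the simulation does not cover the larger spread of the clones. No 2 libraries of a group agreed within sampling noise (chi-square per degree of freedom 2.16 to 74.4).

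Groups follow the genotype label, and replicate numbers only follow the order of listing. Members and lists were chosen with earlier results of these data known. All members are named; from each list up to 3 called genes per direction with the smallest adjusted p. The comparison of BIRC3 with BIRC2 and its other neighbours, the ratios and the order of the clones were chosen after values were seen. Counting floors cover counting error only. Promoter sequences are from RefSeq (GRCh38.p14), and 8 of 10 members had a window there.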

Additional observations from a re-analysis of the deposited data

How the results depend on the processing

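After removal of the GC-content trend, 2 of the 10 members were called higher and 4 lower in place of 3 and 1. Over all tested genes 41.5% were called in that fit and 38.7% in the main fit. NFKB2 (-0.38) and RELB (-0.60) reversed. At an adjusted p below 0.01 no member was called lower (0), and 1312 and 1575 of all tested genes were called higher and lower. With each library left out, members called higher ranged from 2 to 5 and lower from 0 to 1, and calls over all tested genes from 1370 to 4776 higher and from 1650 to 4491 lower, the most without K17 and the fewest without WT 4; fits with 5 libraries have fewer degrees of freedom. All other reversals were also of members that were not called. NFKB1 was at 0.032 with a filter of 1 CPM in 3 libraries, 0.0045 by DESeq2, 0.0085 with DESeq2 size factors, 0.032 with the GC-content trend removed and 0.0071 with no filter, and at -0.036 to 0.054 with a library left out. REL was at -0.032 with library totals, -0.0071 with upper quartile factors, -0.036 for log2 FPKM with a pseudocount of 0.1 and -0.020 with one of 1 (limma), and at -0.072 to 0.076 with a library left out. RELB was at -0.0097 with the FPKM pseudocount of 0.1 and NFKBIE at 0.0038 with the 1 CPM filter. With a library left out, RELB ranged from -0.094 to 0.31, NFKB2 from -0.037 to 0.33 and NFKBIE from -0.23 to 0.10. RELA, NFKBIA and TNFAIP2 stayed higher and BIRC3 lower in sign under all 19 alternatives; calls held in 18, 19, 15 and 14 of them. The value of BIRC3 was -0.34 with the FPKM pseudocount of 1, which compresses low levels. BIRC3 has the fewest counts of the called members and the widest interval. No paired analysis was possible because the labels give the groups no shared replicate numbers; replicate numbers follow the order of listing. The cause of these changes was not tested.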
